A study of Mus musculus with 16 samples.

Results

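The genes described here are 10 regulators of the B lineage, namely the transcription factors Tcf3, Ebf1, Pax5, Foxo1, Ikzf1, Ikzf3, Lef1 and Bach2, the recombinase subunit Rag1 and the terminal transferase Dntt. They were listed by symbol out of the 16612 genes in the RNA-sequencing tables of leukemic and stromal cells from the bone marrow. The list was drawn up with earlier results of these data known. Each of the 10 was listed in both tables and was tested in both.

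B cells arise in the bone marrow from lymphoid progenitors under a small network of transcription factors. The E proteins encoded by Tcf3 act with Ebf1 and Foxo1 to switch on the early B-cell program, and Pax5 then commits cells to it by activating B-lineage genes and repressing those of other lineages. Ikzf1 and Ikzf3, the zinc finger proteins Ikaros and Aiolos, act at the transition of large cycling pre-B cells to small resting ones. Rag1 cuts DNA at the immunoglobulin loci, and Dntt adds bases to the cut ends. In acute lymphoblastic leukemia of the B lineage (B-ALL) with the kinase fusion BCR-ABL the cells are held at the progenitor or precursor stage, and IKZF1, PAX5 and EBF1 are recurrently deleted in the human disease.

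The hosts were C57BL/6J mice, 6 to 8 weeks old and untreated, that were WT or lacked the cytokine gene Il6 (IL-6 KO). Each received 500000 BCR-ABL+, Arf-/- B-ALL cells marked with mCherry by tail vein, and 8 days later marrow of the femur and tibia was depleted of red blood cells and sorted into mCherry+ cells (tumor) and mCherry- cells (stroma). This gave 4 libraries in each of 4 groups, WT tumor, IL-6 KO tumor, WT stroma and IL-6 KO stroma. The leukemia was 1 transduced line with the same genotype in both hosts, so that the tumor groups differ in the host and not in the leukemic cells injected, and both lack Arf. The labels do not say whether the libraries of a group came from separate mice, and p-values therefore measure only the spread between these libraries.

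The pre-B cell genes that the tumor label implies were high in the tumor libraries. Igll1, Cd79a and Vpreb1, which encode parts of the pre-B cell receptor, had mean normalized counts of 24066, 22205 and 16959 in WT tumor. All 8 pre-B cell markers were listed in tumor, as they were in stroma. In stroma, Cd79a averaged 65.9 in WT libraries. The tumor and stroma counts were normalized separately, so these means are not on the same scale. The stromal libraries were rich in erythroid RNA, with Hbb-bs between 28538 and 183114 over the 8 libraries, and 4 of the 9 mesenchymal and endothelial markers, Cdh5, Cxcl12, Emcn and Lepr, were not listed there. Stroma here therefore means all mCherry- marrow cells as sorted. Il6 was not analysed here, and no other gene checks the host labels. The share of the 7SL RNA Rn7s1 was 3.40% to 4.11% in WT tumor and 5.40% to 6.24% in IL-6 KO tumor, without overlap. In stroma it was 19.2% to 50.1% in WT libraries, 71.5% to 79.0% in IL-6 KO libraries 1, 2 and 3, and 10.9% in IL-6 KO library 4, which stood apart with 61.5% on the ribosomal RNA CT010467.1.

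Promoter sequences of 9 of the 10 genes were found in RefSeq (GRCm38.p6), in 14 windows of 300 bases that run from 250 bases before an annotated start to 50 bases after it. They are shown for the 3 genes that differed between the tumor groups, Tcf3, Ebf1 and Bach2, and for Rag1, whose window held the most matches to the motifs searched. The motifs searched on both strands were CCCNNGGG for Ebf1, CAGGTG for E proteins such as Tcf3, TAAACA for Foxo factors, CTTTGA for Lef1 and its relatives, TGGGAA for Ikaros, TGTGGT for Runx factors and TGANTCA for Bach and Maf factors. Matches are in capitals in the sequences below, each written 5′ to 3′ on the strand of its gene, and no matches shown overlap.
Tcf3 promoter (chr10:80433586-80433885, minus strand): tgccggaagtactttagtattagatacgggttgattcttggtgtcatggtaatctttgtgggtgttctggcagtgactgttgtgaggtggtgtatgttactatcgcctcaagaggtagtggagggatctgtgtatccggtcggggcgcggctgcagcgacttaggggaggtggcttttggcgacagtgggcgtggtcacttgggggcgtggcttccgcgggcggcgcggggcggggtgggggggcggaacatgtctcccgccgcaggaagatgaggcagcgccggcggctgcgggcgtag
Ebf1 first start (chr11:44617850-44618149, plus strand): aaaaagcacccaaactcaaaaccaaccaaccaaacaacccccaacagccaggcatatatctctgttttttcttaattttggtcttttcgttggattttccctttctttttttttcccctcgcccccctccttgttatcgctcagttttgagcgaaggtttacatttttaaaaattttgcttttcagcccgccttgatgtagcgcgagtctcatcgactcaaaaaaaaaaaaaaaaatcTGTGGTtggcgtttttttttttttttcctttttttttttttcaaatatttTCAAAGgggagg
Ebf1 second start (chr11:44619978-44620277, plus strand): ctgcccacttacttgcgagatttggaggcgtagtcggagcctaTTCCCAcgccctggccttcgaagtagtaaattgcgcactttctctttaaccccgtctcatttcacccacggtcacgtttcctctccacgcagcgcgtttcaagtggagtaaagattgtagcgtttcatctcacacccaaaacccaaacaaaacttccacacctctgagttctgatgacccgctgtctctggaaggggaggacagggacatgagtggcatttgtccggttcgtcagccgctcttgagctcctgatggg
Bach2 promoter (chr4:32417185-32417484, plus strand): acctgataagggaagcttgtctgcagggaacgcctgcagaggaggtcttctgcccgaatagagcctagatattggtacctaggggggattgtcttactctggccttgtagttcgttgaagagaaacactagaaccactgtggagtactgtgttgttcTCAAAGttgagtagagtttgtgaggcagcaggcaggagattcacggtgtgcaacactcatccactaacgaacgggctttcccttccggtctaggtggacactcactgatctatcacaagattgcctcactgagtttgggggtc
Rag1 promoter (chr2:101649483-101649782, minus strand): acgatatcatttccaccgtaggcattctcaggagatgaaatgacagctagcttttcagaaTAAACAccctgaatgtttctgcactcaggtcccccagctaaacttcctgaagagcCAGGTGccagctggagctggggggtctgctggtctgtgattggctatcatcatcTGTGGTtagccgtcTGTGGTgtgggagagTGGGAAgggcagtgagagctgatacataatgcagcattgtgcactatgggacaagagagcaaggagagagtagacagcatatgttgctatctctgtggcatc

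The Tcf3 window held none of the 7 motifs and had the highest GC content of the 5 shown, 61.7%, against a median of 52.7% over the 32817 windows of the RefSeq table. The first Ebf1 start had a GC content of 36.7%, with a Runx match at position -12 from the start and a Lef1 match at position 39, and the second had an Ikaros match at position -207. The Bach2 window held a single Lef1 match, at position -93. In the Rag1 window there were a Foxo match at position -190, an E protein match at -135, Runx matches at -81 and -67 and an Ikaros match at -52. Such short motifs are common. Of all windows, 13.7% held the Ebf1 motif, 20.2% the E protein motif, 13.4% the Foxo motif, 16% the Lef1 motif, 25.6% the Ikaros motif, 16.8% the Runx motif and 7.81% the Bach motif. A match describes letters in a window and not binding.

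On GRCm38, all 10 are protein-coding genes in GENCODE vM21. Tcf3 (ENSMUSG00000020167.14) lies on chromosome 10 from 80409514 to 80433647, Ebf1 (ENSMUSG00000057098.14) on chromosome 11 from 44617317 to 45008091, Bach2 (ENSMUSG00000040270.16) on chromosome 4 from 32238804 to 32586108 and Rag1 (ENSMUSG00000061311.6) on chromosome 2 from 101638282 to 101649501. The RefSeq start of Bach2 shown above is inside this annotated gene, so other starts of Bach2 are not covered by it. No member had a near-identical copy elsewhere (at least 97% identity over 150 nucleotides). Rag1 overlaps B230118H07Rik on the same strand, and Pax5, Foxo1, Lef1 and Bach2 each overlap another annotated gene that the tumor table also lists, so that reads in the shared parts could have been divided between them.

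In tumor, Dntt was low and the other 9 genes were highly expressed. By normalized count, which grows with transcript length, Tcf3, Ikzf1, Ebf1 and Pax5 were above 98% of the genes of the table in WT tumor, Ikzf3 was above 82.3% and Dntt was above 31.5%. Per kilobase of the longest annotated transcript, the order of mean normalized counts in WT tumor was Tcf3 (6173 ± 320.2, SD, n = 4), Ikzf1 (4105 ± 436), Lef1 (3021 ± 169), Ebf1 (2915 ± 171), Pax5 (2172 ± 9.64), Rag1 (1574 ± 70.8), Foxo1 (972 ± 53.1), Bach2 (747 ± 82.9), Ikzf3 (591 ± 57.1) and Dntt (46.7 ± 11.6). Among neighbors in this order, only Lef1 and Ebf1 had overlapping libraries. In IL-6 KO tumor, Lef1, Pax5 and Ebf1 overlapped in the middle of the order, Ikzf3 and Bach2 overlapped near its end, and Tcf3 and Dntt were again first and last. The order depends on which transcript gives the length, and with the median transcript length, in WT tumor, Bach2, Pax5 and Ikzf1 were ahead of Tcf3. Dntt was last under both lengths.

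**Figure D1:**
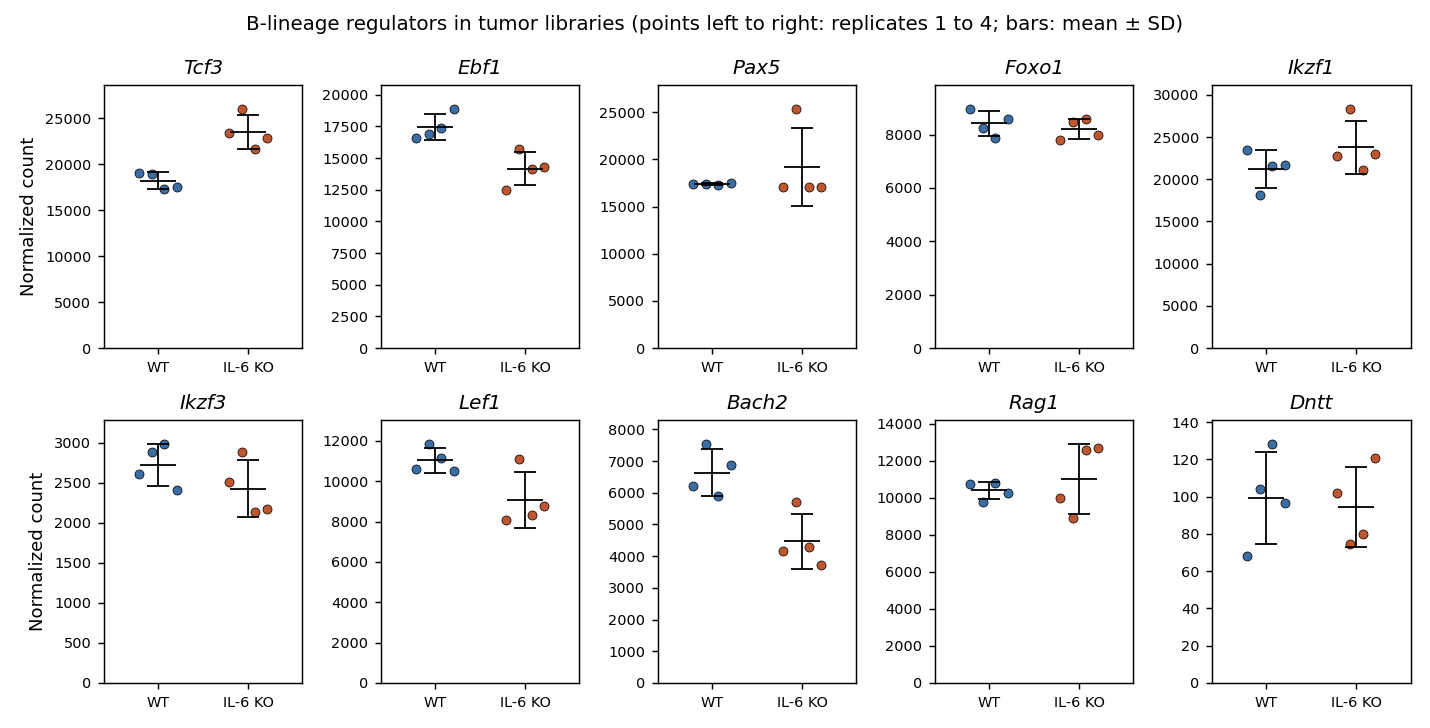
Normalized counts of the 10 genes in the 8 tumor libraries, 1 panel per gene, with points for libraries 1 to 4 of WT (blue) and IL-6 KO (orange) hosts and bars for the mean and SD. The groups are apart for Tcf3 (higher in IL-6 KO), Ebf1 and Bach2 (both lower), and Pax5 differs in IL-6 KO library 2 alone.

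Leukemic cells of the WT and IL-6 KO hosts were compared to ask how the B-lineage network differs with IL-6 absent from the host. In tumor from IL-6 KO mice Tcf3 was higher and Ebf1 and Bach2 were lower than in tumor from WT mice, all by modest amounts, and the other 7 genes did not pass the test. These 3 of 10 genes stand against 19.8% of all 14493 genes tested in tumor, of which 10.6% were higher and 9.16% lower, so their number does not set the B-lineage regulators apart from the rest of the table. The median log2 difference (IL-6 KO over WT) of the 10 genes was -0.05, and that of all genes tested was -0.01. Tests used limma on log2(normalized count + 1), and a gene passed at a Benjamini-Hochberg adjusted p under 0.05 over the whole table. In bulk samples, fewer cells of a type and less RNA per cell cannot be told apart.

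Tcf3, which encodes the E proteins E12 and E47, had normalized counts of 19072, 18978, 17298 and 17494 in WT tumor 1 to 4. In IL-6 KO tumor 1 to 4 it had 23370.0, 26008, 21627 and 22858. The lowest IL-6 KO library was thus above the highest WT library, a pattern shown by 13.6% of all tumor genes. The log2 difference was 0.36 (standard error 0.07, 95% interval 0.21 to 0.52, limma adjusted p = 0.00835), and the means were 18211 ± 945 for WT and 23466 ± 1846 for IL-6 KO (SD, n = 4 each). The call was lost when the trend with GC content and length was removed (0.18, limma adjusted p = 0.126) and when the libraries were centered on the pre-B cell markers (0.22, limma adjusted p = 0.0841).

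Ebf1, the pioneer factor of early B cells, moved the other way. Its normalized counts were 16595, 16879, 17389 and 18887 in WT tumor 1 to 4 and 12508, 15736, 14177 and 14292 in IL-6 KO tumor 1 to 4. The groups did not overlap, with all 4 IL-6 KO libraries below the lowest WT library, as for 12% of all tumor genes. The log2 difference was -0.30 (standard error 0.08, 95% interval -0.48 to -0.13, limma adjusted p = 0.0254). This call was lost in 5 of the 8 fits that leave out a library, namely without WT tumor 3 (limma adjusted p = 0.0606) or 4 (0.0653) and without IL-6 KO tumor 1 (0.0658), 3 (0.0513) or 4 (0.0604), and the difference stayed between -0.35 and -0.24 in all 8.

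Pax5, the commitment factor, was nearly constant in WT tumor, at 17367, 17415, 17292 and 17475. In IL-6 KO tumor it was 17078, 17109.7 and 17095 in libraries 1, 3 and 4 and 25352 in library 2. The IL-6 KO mean therefore rests on library 2. The log2 difference was 0.12 (standard error 0.12, limma adjusted p = 0.521), and without that library it was -0.02. Foxo1, a forkhead factor restrained by PI3K and Akt signaling, was among the steadiest, with 7885 to 8965 in WT tumor and 7800.3 to 8588 in IL-6 KO tumor. Its log2 difference was -0.04 with a 95% interval of -0.18 to 0.10 (limma adjusted p = 0.712).

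Ikzf1 had normalized counts of 23459, 18082, 21520.4 and 21723 in WT tumor and 22772, 28338, 21091 and 23014 in IL-6 KO tumor, with overlapping groups and a log2 difference of 0.16 (95% interval -0.07 to 0.40, limma adjusted p = 0.292). Ikzf3, its close relative, had 2410.1 to 2987 in WT and 2131 to 2886 in IL-6 KO tumor. The log2 difference of Ikzf3 was -0.17 (95% interval -0.42 to 0.08, limma adjusted p = 0.301).

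Bach2, a repressor that restrains plasma cell differentiation and acts at the pre-B cell receptor checkpoint, had the largest difference of the 10 genes in tumor. Its normalized counts were 6226, 7553, 5887 and 6875 in WT tumor 1 to 4 and 4153, 5702, 4295 and 3721 in IL-6 KO tumor 1 to 4. Library 2 was the highest of the IL-6 KO group and was still below every WT library. The means were 6635 ± 737 for WT and 4468 ± 858 for IL-6 KO (SD, n = 4 each), which gave a log2 difference of -0.58 (standard error 0.13, 95% interval -0.87 to -0.29, limma adjusted p = 0.0145). Bach2 passed the test in each of the 8 fits that leave out a library.

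Lef1, a DNA-binding partner of beta-catenin and a marker of early B cells, had 10631, 11869, 11162 and 10517 in WT tumor and 8078, 11124, 8313 and 8798 in IL-6 KO tumor. Libraries 1, 3 and 4 of IL-6 KO tumor were below every WT library and library 2 was inside the WT range. The log2 difference was -0.29 (standard error 0.10, limma adjusted p = 0.0651). Without IL-6 KO tumor 2 it was -0.39 (limma adjusted p = 0.00346), and with all 8 libraries it also passed under quantile normalization (limma adjusted p = 0.0335), array weights (0.0066) and centering on the pre-B cell markers (0.0325). Whether Lef1 passes therefore depends on the setting.

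The recombination genes of the list did not pass the test in tumor. Rag1 had 10760.2, 9800.0, 10783 and 10254 in WT tumor and 9993, 8904, 12596 and 12671 in IL-6 KO tumor. Its IL-6 KO libraries fell on both sides of the WT range, with a log2 difference of 0.07 (95% interval -0.18 to 0.32, limma adjusted p = 0.691). Dntt, at 68.3, 104, 128 and 96.7 in WT and 102, 74.6, 79.8 and 121 in IL-6 KO tumor, had a log2 difference of -0.07 (95% interval -0.60 to 0.46, limma adjusted p = 0.871). The differences of Pax5, Foxo1, Ikzf1, Rag1 and Dntt lay between -0.07 and 0.16, and each of them changed sign under at least 1 other scaling, so no direction is given for these 5 genes.

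**Figure D2:**
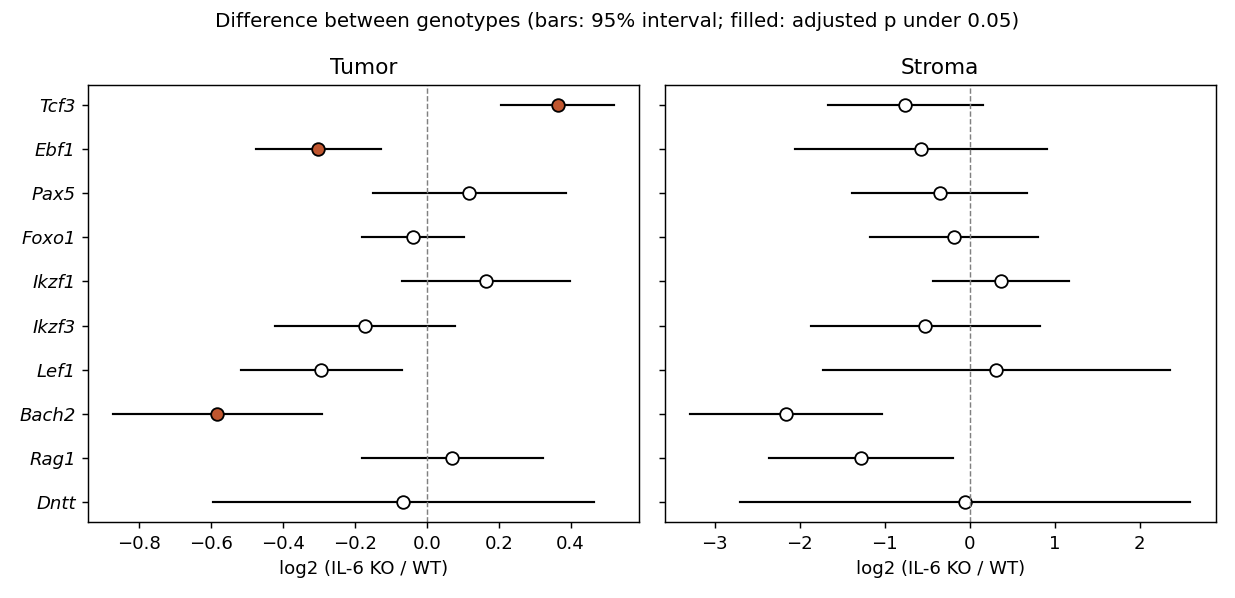
Log2 difference between IL-6 KO and WT hosts (x axis) for each gene, in tumor (left) and stroma (right, on a wider axis), with points for limma's estimate, bars for its 95% interval and filled points for an adjusted p under 0.05. Tcf3, Ebf1 and Bach2 are filled in tumor, none is filled in stroma, and the intervals in stroma are several times wider.

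Values that moved with the host genotype in tumor are given beside these results. Neutrophil markers were higher in all 4 IL-6 KO tumor libraries, with a mean log2 level of 7.60 ± 0.24 for WT against 9.001 ± 0.46 for IL-6 KO (SD over 4 libraries each) and with summed normalized counts of 4913 to 5642 and 7822 to 18919. All 13 markers were listed, and 10 of them rose. The pre-B cell markers had summed levels of 105406 to 110630 in WT and 112140.4 to 127501 in IL-6 KO tumor, with Vpreb1 and Vpreb2 higher and Cd24a lower. Mature B-cell markers had summed levels of 1782 to 3439 and 1358 to 1751, with Ccr7, Ighd and Cd55 lower and Cxcr5, Fcer2a and Ms4a1 not listed. For each of these 3 lists the mean log2 level did not overlap between the groups (two-sided exact permutation p = 0.0286, which is the lowest possible here, and adjusted p = 0.0952 over 10 lists). The Rn7s1 share given above and the summed normalized counts, 38817792 to 44552085 in WT and 47267047 to 55592959 in IL-6 KO tumor, did not overlap between the groups either. The part of these values in the results of the 10 genes was not tested.

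The tumor differences also followed the GC content of the transcripts. When the tested tumor genes were cut into 4 equal bins by GC content, the median log2 difference was -0.23 in the lowest bin (28.3% to 45.4%) and 0.22 in the highest (54.7% to 75.5%). Tcf3 is in the highest bin, with a median transcript GC content of 61.5%, and Ebf1 (47.2%) and Bach2 (49.7%) are in the second, whose median was -0.06. With the trend of each library with GC content and length removed, Bach2 still passed (log2 difference -0.42, limma adjusted p = 0.0372), and Tcf3 and Ebf1 (-0.18, limma adjusted p = 0.171) no longer did. When the libraries were centered on the pre-B cell markers, Tcf3 no longer passed, and Ebf1 (-0.44, limma adjusted p = 0.0124), Lef1 (-0.43, limma adjusted p = 0.0325) and Bach2 (-0.72, limma adjusted p = 0.0102) passed.

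**Figure D3:**
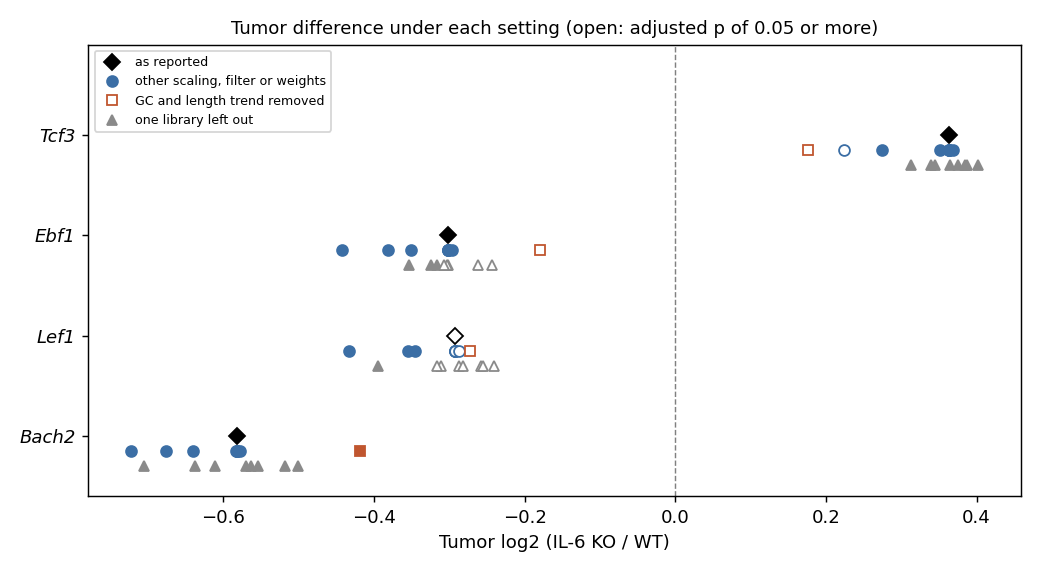
Tumor log2 difference between IL-6 KO and WT (x axis) of Tcf3, Ebf1, Lef1 and Bach2 as reported (diamonds), under other scalings, filters or weights (circles), with the trend in GC content and length removed (squares) and with 1 library left out (triangles), open where the adjusted p was 0.05 or more. The sign of each gene is the same in every setting, and Bach2 is filled throughout.

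The partners of the 10 genes were described from 4 lists. Of 13 factors that work with Rag1 in V(D)J recombination, 1 rose and 3 fell in IL-6 KO tumor, where 10.6% of all genes tested rose and 9.16% fell. Hmgb1 and Hmgb2, the DNA-bending proteins that assist the RAG complex, moved in opposite directions, with log2 differences of -0.45 (limma adjusted p = 0.00214) and 0.68 (limma adjusted p = 0.0108). Dclre1c, the nuclease Artemis that opens the hairpin ends, fell by 0.46 on the log2 scale (limma adjusted p = 0.0192), and Xrcc4, of the end-joining ligase complex, fell by 0.49 (limma adjusted p = 0.0372). With the trend in GC content and length removed, Dclre1c (-0.32, limma adjusted p = 0.0725) and Xrcc4 (-0.23, limma adjusted p = 0.22) no longer passed. Rag2, the other RAG subunit, was looked up after its values were seen and had a log2 difference of -0.22 (limma adjusted p = 0.218).

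Among 29 tested members of a list of other lymphoid transcription factors, 3 rose and 4 fell. Erg and Irf8 had log2 differences of 0.36 (limma adjusted p = 0.00631) and 0.38 (limma adjusted p = 0.0115), and Bcl11a and Myb, both needed by early B-cell progenitors, had -0.47 (limma adjusted p = 0.0068) and -0.23 (limma adjusted p = 0.025). With the trend in GC content and length removed, Erg and Bcl11a passed and Irf8 (0.19, limma adjusted p = 0.26) and Myb (-0.09, limma adjusted p = 0.368) did not. Of 22 genes known to be activated by Pax5 or Ebf1, 2 rose and 2 fell, with Bach2 among the latter. That list also holds the members Lef1, Ikzf3 and Rag1, so it partly repeats the results of the 10 genes. Vpreb1 and Vpreb2, the surrogate light chain genes, rose by 0.53 (limma adjusted p = 0.00368) and 0.49 (limma adjusted p = 0.00921), while Cd22, an inhibitory receptor of B cells, fell by 0.54 (limma adjusted p = 0.0283). Of 14 targets of Foxo1 or Lef1, 1 rose, namely Tcf7 (0.33, limma adjusted p = 0.043). With that trend removed, Vpreb2 (0.34, limma adjusted p = 0.0885) and Tcf7 (0.17, limma adjusted p = 0.245) did not pass. Centered on the pre-B cell markers, Erg, Irf8 and Tcf7 did not pass, and with a library left out Dclre1c passed in 5 of 8 fits, Myb and Cd22 in 3 and Xrcc4 and Tcf7 in 1. The Foxo1 target Il7r had a log2 difference of -0.33 (limma adjusted p = 0.0604) and the Lef1 target Axin2 one of -0.88 (limma adjusted p = 0.114). The called genes were 4 of 13, 7 of 29, 4 of 22 and 1 of 14, against 19.8% of all tumor genes, and nothing is read from these shares. The median log2 differences of the 4 lists lay between -0.13 and -0.03.

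In stroma all 10 genes were above 0 in every library except for Dntt in IL-6 KO library 1, and levels varied widely between libraries. Per kilobase of the longest transcript Tcf3 was first in WT stroma (297 ± 65.9, SD, n = 4) and separate from Ikzf1 (124 ± 64.4) and Bach2 (108 ± 37.2), and further down the order each gene overlapped with its neighbor. The coefficient of variation of the 10 genes had a median of 40.9% in WT stroma and 56.3% in IL-6 KO stroma, against 5.72% in WT tumor and 14.9% in IL-6 KO tumor.

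**Figure D4:**
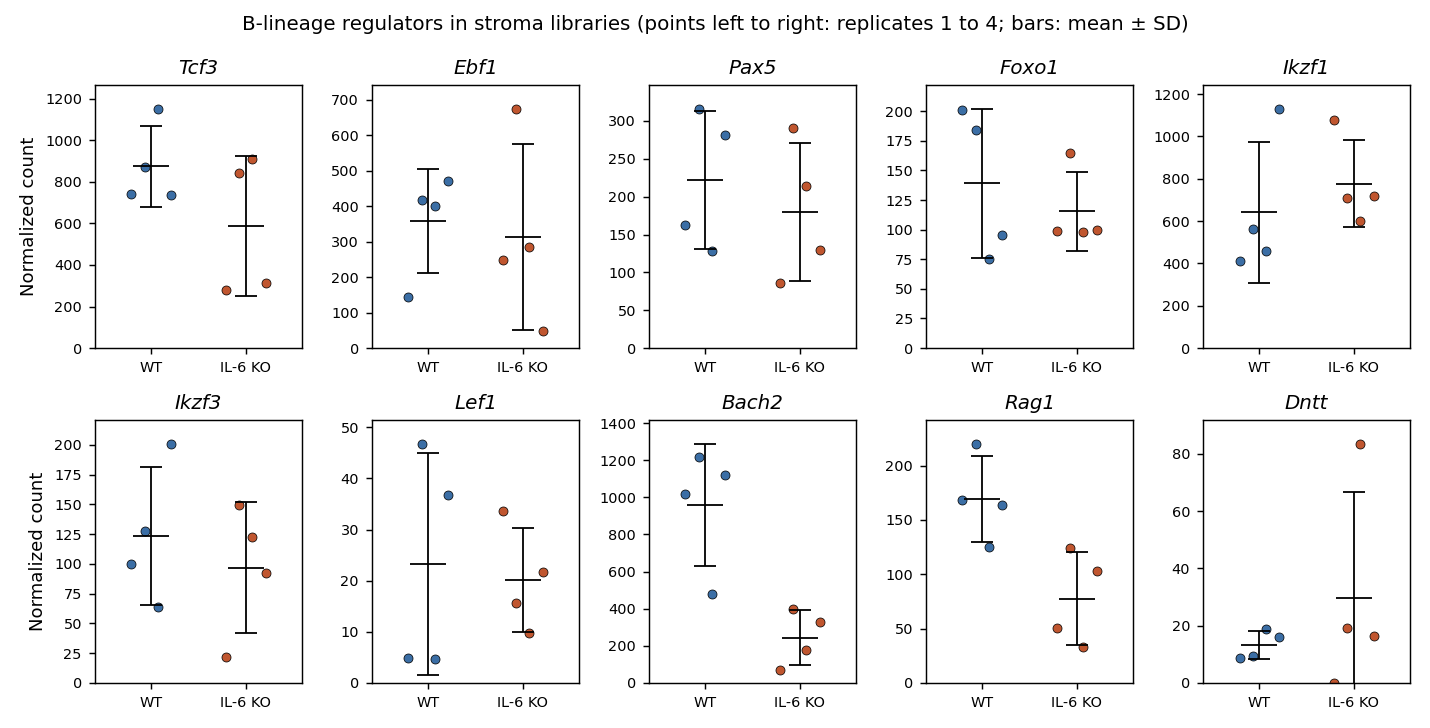
Normalized counts of the 10 genes in the 8 stroma libraries, 1 panel per gene, with points for libraries 1 to 4 of WT (blue) and IL-6 KO (orange) hosts and bars for the mean and SD. Bach2 and Rag1 are the panels in which the groups do not overlap, and the scatter within groups is much larger than in tumor.

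None of the 10 genes passed the test between WT and IL-6 KO stroma, where 0.0082% of 12202 genes did, a single gene. At an unadjusted p under 0.05, 2 of the 10 genes differed, Bach2 and Rag1, against 9.15% of all genes. Both were lower in IL-6 KO stroma with no overlap between the groups, as for 3.25% of all genes, and none of the 10 was higher without overlap, as for 2.54%. The summed normalized counts did not overlap either, at 8805689 to 17470735 in WT and 33973016 to 44191950 in IL-6 KO stroma. IL-6 KO stroma 1 and 3, with the lowest Bach2 and Rag1 values, had the most genes at 0, 1570 and 1227. The other stroma libraries had 307 to 1121. The part of these values in the Bach2 and Rag1 results was not tested. The median residual SD was 0.80 on the log2 scale for the 10 genes in stroma and 0.17 in tumor. Differences of the size seen in tumor were therefore not detectable in stroma, and larger ones could be missed too. In data simulated with normal noise of each gene's residual SD, 41 of 200 genes with a log2 change of 2 were recovered in stroma, against 171 of 200 in tumor. These 200 were drawn from all tested genes and were the only ones changed. The shares therefore do not give the recovery for the 10 genes.

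Bach2 had normalized counts of 1020.1, 1216, 478 and 1123 in WT stroma 1 to 4 and 70.01, 399, 179 and 327 in IL-6 KO stroma 1 to 4. WT library 3 was the lowest of its group and was closest to the IL-6 KO libraries. The log2 difference was -2.16 (standard error 0.52, 95% interval -3.29 to -1.03) with an unadjusted p of 0.00123 and a limma adjusted p of 0.305. Over the fits that leave out a library it stayed between -2.49 and -1.66, and the adjusted p between 0.179 and 0.738.

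Rag1 was at 168, 220.3, 125 and 164 in WT stroma and at 50.4, 124, 32.7 and 103 in IL-6 KO stroma. The highest IL-6 KO library, the second, lay just under the lowest WT library, the third. The log2 difference was -1.28 (standard error 0.50, 95% interval -2.36 to -0.19) with an unadjusted p of 0.0246 and a limma adjusted p of 0.476. With a library left out the difference stayed between -1.56 and -0.93, and limma's unadjusted p rose above 0.05 without WT stroma 2 (0.0735) and without IL-6 KO stroma 1 (0.0533) or 3 (0.0666), as it did when centered on the pre-B cell markers (0.0663). Without IL-6 KO stroma 4, the library apart, the log2 differences were -1.47 for Rag1 and -2.39 for Bach2.

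The master regulators overlapped between the stroma groups. Tcf3 was at 742, 874, 1151 and 735 in WT stroma and at 278, 843, 912 and 314 in IL-6 KO stroma, where libraries 1 and 4 were well below the others, and its log2 difference was -0.76 (95% interval -1.67 to 0.16, limma adjusted p = 0.606). Ebf1 ranged from 143 to 471 in WT stroma and from 47.4 to 674 in IL-6 KO stroma (log2 difference -0.57, limma adjusted p = 0.828). Pax5 ranged from 128 to 316 and from 85.7 to 291, and Foxo1 from 75.5 to 201 and from 98.3 to 165. The log2 differences of Pax5 and Foxo1 were -0.35 (limma adjusted p = 0.854) and -0.19 (limma adjusted p = 0.927).

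Ikzf1, which many blood lineages use, was at 411, 564, 459 and 1130.4 in WT stroma and at 1078, 711, 601 and 719 in IL-6 KO stroma, with a log2 difference of 0.37 (95% interval -0.43 to 1.16, limma adjusted p = 0.791). Ikzf3 ranged from 64.1 to 201 in WT stroma and from 22.1 to 149.8 in IL-6 KO stroma. Lef1 was low in stroma, between 4.62 and 46.8 over the WT libraries and between 9.81 and 33.6 over the IL-6 KO libraries. Dntt was at 8.81, 9.27, 18.9 and 15.97 in the WT libraries, while IL-6 KO library 1 listed it at 0 and the others had 19.0, 83.5 and 16.5. The sign of Dntt in stroma changed under other scalings, and that of Lef1 with array weights or with WT library 1 or 3 left out, so no direction is given for them.

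Markers of the other B-lineage stages and of further cell types that use these genes were read in the same stroma libraries. The mean log2 level of the pre-B cell markers was 5.67 ± 0.30 for WT and 5.74 ± 0.75 for IL-6 KO (SD over 4 libraries each), with summed counts of 4701 to 8035 and 2630.3 to 5303, of which Cd24a made up most. Mature B-cell markers were at 3.64 ± 0.63 and 2.85 ± 0.92, with summed counts of 128 to 297 and 84.8 to 222. Plasmacytoid dendritic cell markers, a cell type that uses Tcf4 and Irf8, were at 6.14 ± 0.57 and 5.29 ± 0.37, with summed counts of 707 to 1080.3 and 554 to 1107. Mesenchymal and endothelial markers were at 5.94 ± 0.20 and 5.14 ± 0.86, with all 4 IL-6 KO libraries below the lowest WT library (two-sided exact permutation p = 0.0286) and summed counts of 351 to 642 and 169 to 1726. No list passed an adjusted p of 0.05 in stroma (exact permutation test, two-sided, lowest adjusted p = 0.1905 over 10 lists). Which of these cells carried the Bach2 and Rag1 RNA was not tested. None of the genes on the 4 partner lists passed in stroma either, with 11, 29, 19 and 13 genes tested, and the 6 named there that are not members had log2 differences between -0.91 (Bcl11a) and 1.35 (Cbfb).

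The tumor and stroma tables were normalized separately, and the levels were set on a common scale by the median ratio over 9503 genes above 0 in all 16 libraries. This divided the tumor counts by 3.13 to 3.20 and the stroma counts by 0.330 to 0.346, so the ratios depend on these factors. These ratios describe the libraries and were not tested. Lef1 had the largest ratio of tumor to stroma, 51.2 in WT and 47.8 in IL-6 KO mice. Pax5 (8.42 and 11.4), Rag1 (6.59 and 15.3), Foxo1 (6.48 and 7.62) and Ebf1 (5.24 and 4.82) followed, and Ikzf1 (3.55 and 3.26), Ikzf3 (2.37 and 2.70) and Tcf3 (2.23 and 4.28) had smaller ratios. For these 8 genes every tumor library was above every stroma library of its genotype.

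Bach2 and Dntt were the exceptions. The common-scale level of Bach2 was 2096 in WT tumor and 2825 in WT stroma, a ratio of 0.742 with overlapping libraries, and in IL-6 KO mice it was 1409.7 in tumor and 714 in stroma, a ratio of 1.97 without overlap. Dntt overlapped between tumor and stroma in both genotypes, with ratios of 0.807 and 0.340. Whether the genotype difference of any gene was larger in stroma than in tumor was not tested.

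**Figure D5:**
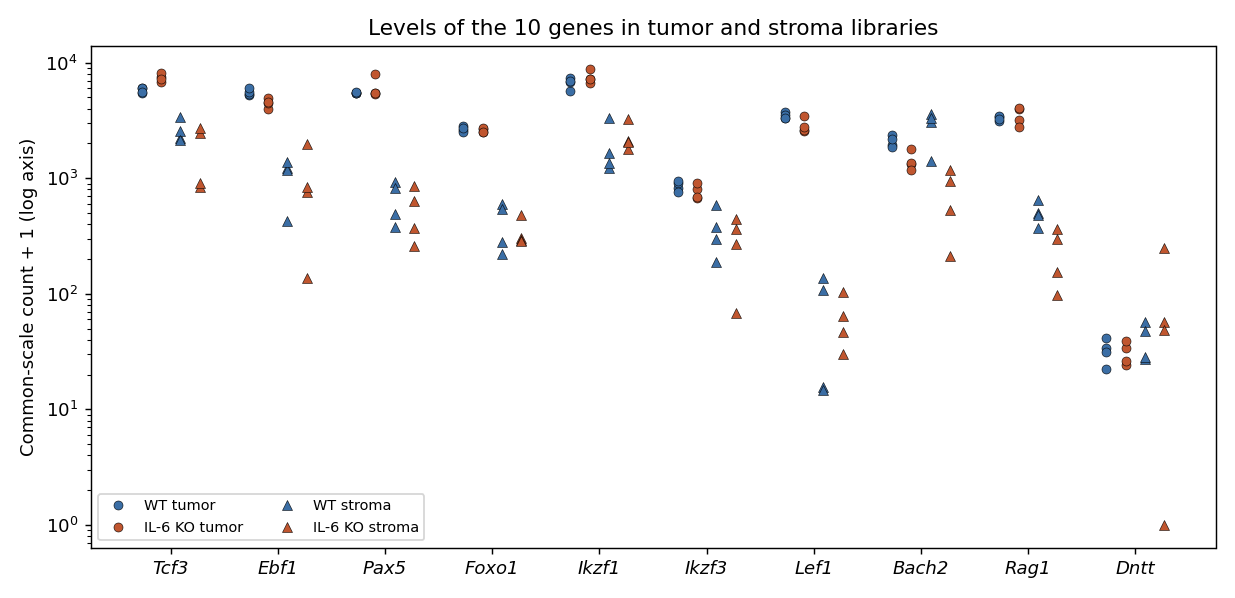
Common-scale count plus 1 (log axis) of the 10 genes in each of the 16 libraries, with circles for tumor, triangles for stroma, blue for WT and orange for IL-6 KO hosts. Lef1 has the widest gap between tumor and stroma, Bach2 of WT mice and Dntt of both genotypes overlap between them, and the Dntt triangle at 1 is the library listed at 0.

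Several of the 10 genes had their highest or lowest level of a group in the same library. IL-6 KO tumor 2 had the highest level of the 4 IL-6 KO tumor libraries for 7 genes, Bach2, Ebf1, Ikzf1, Ikzf3, Lef1, Pax5 and Tcf3, and the lowest for Dntt and Rag1. In stroma, IL-6 KO library 2 was the highest of its group for 6 genes and library 1 the lowest for 5, and WT library 3 was the lowest for 6. Over the 8 tumor libraries, as deviations from the group means, the 45 pairs of genes had Pearson correlations from -0.92 (Dntt and Foxo1) to 0.91 (Pax5 and Lef1), with a median of 0.26. In stroma they ran from -0.46 to 0.88 (Pax5 and Ikzf3), with a median of 0.24. Of the 45 pairs, 30 had a positive correlation in tumor and 33 in stroma. Pairs of other genes were not correlated, so it is not known whether the members differ from them in this. Pax5 stood apart only in IL-6 KO tumor 2, so its correlations in tumor rest mostly on that library. These are descriptions over libraries that share a normalization.

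The genes whose deviations were most like the mean of the 10 over 8 libraries were Dvl3, Arpc3, Fgfrl1, Rnf113a2 and Eif4a-ps4 in tumor, with correlations of 0.98 to 0.99 among 11228 genes compared. In stroma they were Ipo11, Lmf2, Orc6, Aurkb and Nmral1, with correlations of 0.97 to 0.99 among 8069 genes. No gene was on both lists of 5.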

How the data were processed

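RNA from mCherry+ and mCherry- marrow cells was sequenced after depletion of ribosomal RNA, on single-end reads. The authors aligned to mm10, quantified transcripts with Salmon 1.3.0 correcting for sequence bias and GC content, and normalized with DESeq2 1.28.1. The deposited values of each compartment are normalized counts, a scaled signal that is not whole reads. Low values did not give whole reads, so the depth of each library and its precision are unknown and no count test was run. The authors' tables of DESeq2 results, which hold fold changes, test statistics and p-values, were not used.

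Groups came from the labels. Within each table, log2(normalized count + 1) was tested with limma 3.58.1 (R 4.3.3, variance trend, genotype as the only term), two-sided, on genes with a mean over 10, adjusted by Benjamini-Hochberg at a threshold of 0.05. All 10 members were named. From each of 4 lists of partners, up to 4 genes with the smallest adjusted p in tumor and 2 in stroma were named, with up to 3 genes per list of cell type markers by level and, per table, the 5 genes most like the members. 1 gene that this rule gives is not reported here. The members and lists were chosen with earlier results of these data known. Alternatives were pseudocounts of 0.5 and 5, no filter, a mean over 50, quantile normalization, array weights, centering on the library median, a block on replicate number, removal of the trend with GC content and length (loess, span 0.3) and each library left out. Centering on the pre-B cell markers was added after the values were seen. Annotation was GENCODE vM21, in which 13338 of 13344 stroma and 15069 of 15080 tumor identifiers were found. Copies were sought with BLAST 2.17.0, tests were tried on simulated data, with SciPy 1.17.1 and pandas 2.3.3 under Python 3.11.15, and plots were made with matplotlib 3.10.9.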

Additional observations from a re-analysis of the deposited data

Results flagged for a closer look

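3 measurements stood far from the other libraries of their group by Dixon's criterion, out of 80 groups of 4 libraries, and chance alone would give about 1 in 20 groups. Pax5 in IL-6 KO tumor 2 was at 25352 normalized counts, while the other IL-6 KO tumor libraries lay between 17078 and 17109.7. Foxo1 in IL-6 KO stroma 2 was at 165, while the others of its group lay between 98.3 and 99.3. The mean log2 level of the mesenchymal and endothelial markers was 3.86 in IL-6 KO stroma 4, the lowest of a group that reached 5.71.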

How the results depend on the processing

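Of 951 values recomputed under the alternatives, 832 kept their direction and their side of the threshold or moved little, 28 reversed, 49 no longer passed, 10 newly passed and 32 moved. In tumor, 3 members passed as reported, 4 with quantile normalization or array weights, 3 when centered on the pre-B cell markers (Bach2, Ebf1 and Lef1) and 1 with the trend in GC content and length removed (Bach2), and 2 to 4 with a library left out. In stroma 0 members passed limma's test in each setting, and 2 had an unadjusted p under 0.05 as reported.

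Over all tumor genes, 2870 passed, 4153 with array weights, 2160 with the trend in GC content and length removed, and with a library left out between 1569 (IL-6 KO tumor 4 absent) and 3327 (IL-6 KO tumor 2 absent). In stroma 1 gene passed, 4 with array weights, 2 with that trend removed, and 1 to 3 with a library left out. The cause of these changes was not tested.

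The fit with the replicate number as a block (replicate block) called 4 members in tumor, the fourth being Lef1 (limma adjusted p = 0.0449), none in stroma, and 2230 tumor genes. Same-numbered WT and IL-6 KO libraries had correlations of -0.0293 to 0.126 in stroma and -0.0186 to -0.0003 in tumor. Libraries with different numbers, and tumor with stroma libraries, were not compared, so whether the numbers pair libraries is not known.

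Log2 differences that reversed were, for Dntt in stroma (-0.05), 0.30 with a pseudocount of 5, 0.22 with quantile normalization, 0.23 with array weights, 0.0004 with the GC and length trend removed and 0.055 centered on the pre-B cell markers, and for Lef1 in stroma -0.38 with array weights. In tumor, Dntt went to 0.12 with quantile normalization, 0.0555 with array weights and 0.0227 with the GC and length trend removed, which also gave -0.0863 for Pax5, 0.0965 for Foxo1, -0.0091 for Ikzf1 and -0.0126 for Ccnd1. Centered on the pre-B cell markers, Pax5 was at -0.0229 and Rag1 at -0.0694 in tumor. With a library left out, the ranges that crossed 0 were -0.44 to 0.0289 for Foxo1, -0.18 to 0.85 for Lef1, -0.95 to 1.19 for Dntt, -0.83 to 0.0721 for Ikzf3 and -1.11 to 0.16 for Ebf1 in stroma, and -0.23 to 0.0684 for Dntt, -0.0245 to 0.17 for Pax5 and -0.0005 to 0.17 for Rag1 in tumor. Bach2 was lower in IL-6 KO mice in both compartments in all settings run.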

Other observations

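The remaining marker lists are given as mean log2 levels (SD over 4 libraries), in WT and then IL-6 KO mice. In tumor, plasma cell markers were at 8.16 ± 0.27 and 7.90 ± 0.41, T and NK cell markers at 7.96 ± 0.16 and 8.001 ± 0.14, plasmacytoid dendritic cell markers at 8.30 ± 0.26 and 8.40 ± 0.15 and stem and lymphoid progenitor markers at 4.70 ± 0.59 and 4.401 ± 0.30. Monocyte and macrophage markers were at 5.80 ± 0.17 and 6.25 ± 0.34, erythroid markers at 7.94 ± 0.82 and 8.11 ± 0.62 and mesenchymal and endothelial markers at 5.89 ± 0.59 and 5.20 ± 0.37. In stroma, plasma cell markers were at 4.72 ± 1.29 and 4.27 ± 0.75, T and NK cell markers at 3.55 ± 0.73 and 3.14 ± 0.46, stem and lymphoid progenitor markers at 4.82 ± 0.63 and 5.73 ± 0.46 and neutrophil markers at 8.66 ± 0.39 and 9.20 ± 0.80. Monocyte and macrophage markers were at 4.74 ± 0.49 and 4.93 ± 1.06 and erythroid markers at 12.93 ± 0.28 and 12.49 ± 0.98. None of these lists passed an adjusted p of 0.05 (exact permutation test, two-sided, 10 lists per table).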
